A study of Homo sapiens with 2 samples.

Results

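The genes examined here are 8 listed as cytokinesis and central spindle genes. ANLN, ECT2, RACGAP1, PRC1, CIT and CEP55 encode proteins that build the central spindle, pull in the cleavage furrow or separate the daughter cells. DLGAP5 and NUSAP1 encode proteins that bind and bundle spindle microtubules. All 8 were taken by name, as every probe set to which the array's annotation assigns exactly 1 gene symbol that is in this list. That gave 11 of 41097 single-gene probe sets and 7 of the 8 genes. CIT, the gene of citron kinase, had no such probe set, because the annotation names it together with MIR1178 on both probe sets where it occurs.

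CL1-5 is a highly invasive human lung adenocarcinoma cell line. One culture was treated for 24 h with 0.11 µM analogue 3, a desmosdumotin C derivative whose label gives 4′-iodo and 3,3,5-tripropyl-4-methoxy groups, and the other with the solvent DMSO for the same 24 h. Each culture gave 1 Affymetrix U133 Plus 2.0 array, so no difference below has a replicate check or a p-value. The comparison addresses which transcripts differ in cells exposed to the compound at the dose that the submitters give as its ED50 in this line.

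When chromosomes part, microtubules of opposite polarity overlap between them and form the central spindle. That structure tells the cortex where to assemble an actomyosin ring, through activation of the small GTPase RhoA. The ring closes on the midbody, where the ESCRT membrane-cutting machinery completes abscission. In dividing cells, transcripts of many proteins made only for this step accumulate in G2 and mitosis, and their promoters often carry a cell cycle genes homology region (CHR), which the DREAM and MuvB complexes recognise, near CCAAT boxes, which NF-Y recognises.

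RefSeq promoter windows (GRCh38.p14, 250 bases before to 50 after a listed start) were found for 7 of the 8 genes, with RACGAP1 the missing entry. The core letters of the CHR, TTTGAA, were sought on both strands (read as TTCAAA on the other), and so was CCAAT, which reads as ATTGG on the other. All 7 genes held at least 1 CHR match, against 18.2% of 27305 genes with an entry, and 15.2% of all 35116 windows. CCAAT occurred in 6 of the 7, all but ANLN, against 39.7% of genes. Both motifs occurred in 6 of 7, against 8.37% of genes. A match describes letters and does not show that a factor binds there. The stretches below run 5′ to 3′ on the gene's own strand, from 120 bases before to 30 after the start, with matches of either motif in capitals, and positions count the first transcribed base as 1. They are shown because these 6 genes have both a measured level and a window.
ANLN, chr7:36389742-36389891, plus strand: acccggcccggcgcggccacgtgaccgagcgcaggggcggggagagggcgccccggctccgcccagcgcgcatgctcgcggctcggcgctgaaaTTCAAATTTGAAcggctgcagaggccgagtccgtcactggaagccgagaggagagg
ECT2, chr3:172750606-172750755, plus strand: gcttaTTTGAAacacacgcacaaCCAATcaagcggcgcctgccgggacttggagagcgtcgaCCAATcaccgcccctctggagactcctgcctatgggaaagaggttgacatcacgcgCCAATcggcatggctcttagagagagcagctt
PRC1, chr15:90994506-90994655, minus strand: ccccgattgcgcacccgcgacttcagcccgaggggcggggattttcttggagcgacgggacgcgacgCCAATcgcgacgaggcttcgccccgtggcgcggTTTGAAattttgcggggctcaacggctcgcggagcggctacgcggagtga
CEP55, chr10:93496492-93496641, plus strand: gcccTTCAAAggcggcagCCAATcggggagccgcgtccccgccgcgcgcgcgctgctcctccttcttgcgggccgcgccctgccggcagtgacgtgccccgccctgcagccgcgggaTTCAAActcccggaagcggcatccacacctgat
DLGAP5, chr14:55191556-55191705, minus strand: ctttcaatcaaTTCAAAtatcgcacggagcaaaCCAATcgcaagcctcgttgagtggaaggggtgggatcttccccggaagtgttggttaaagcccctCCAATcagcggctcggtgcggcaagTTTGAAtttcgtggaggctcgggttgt
NUSAP1, chr15:41332761-41332910, plus strand: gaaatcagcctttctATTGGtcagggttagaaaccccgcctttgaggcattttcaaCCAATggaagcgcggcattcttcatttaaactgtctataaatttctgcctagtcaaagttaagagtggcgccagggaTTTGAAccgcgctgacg
In ANLN, 2 CHR matches on opposite strands abut, from position -26 to -15, and PRC1 has its match at the same place, -20 to -15, with CCAAT at -53. In NUSAP1 and DLGAP5 a match lies just after the start, at 14 and at 4. The first base of a CEP55 match lies at -3, so that it spans the start. The ECT2 match shown begins at -115. A second listed ECT2 start had matches that begin at -242 and -182 and no CCAAT box. Both ECT2 windows overlap, and its match at -242 is the one at 35 of the first window.

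**Figure D1:**
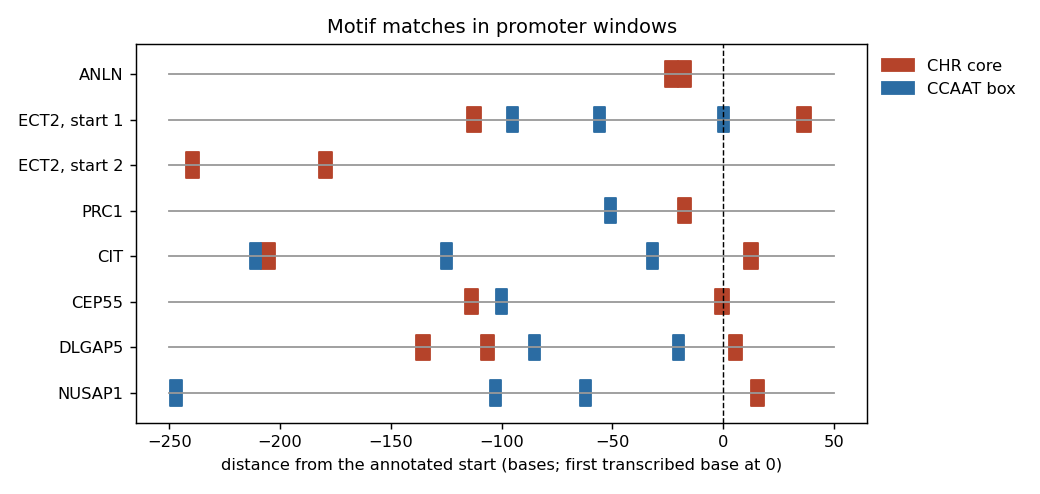
Positions of CHR core matches (red) and CCAAT matches (blue) on either strand in the promoter windows of the 7 genes with a RefSeq entry, in bases from each annotated start; ECT2 has 2 listed starts. Every window holds a CHR match, and the ANLN window and the second ECT2 window hold no CCAAT box.

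All 7 measured genes had more signal with analogue 3 than with DMSO, between 2.07- and 3.63-fold. Intensities are GCRMA values on a linear scale, as multiples of the array's median. Values under 32 (log2 5) were raised to that floor, a gene counted as measured if at least 1 array reached it, and a floored difference of 2-fold or more was called. Each gene was read from its brightest single-gene probe set, and on these all 7 genes lay above the floor on both arrays. All 7 were called higher, where 3.47% of the 5050 measured genes were called higher, and none was called lower, where 2.67% were. The median log2 difference was 1.48 over the members and -0.01 over all measured genes. Signal from a larger share of cells in mitosis and more transcript in each cell cannot be told apart in such bulk RNA.

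**Figure D2:**
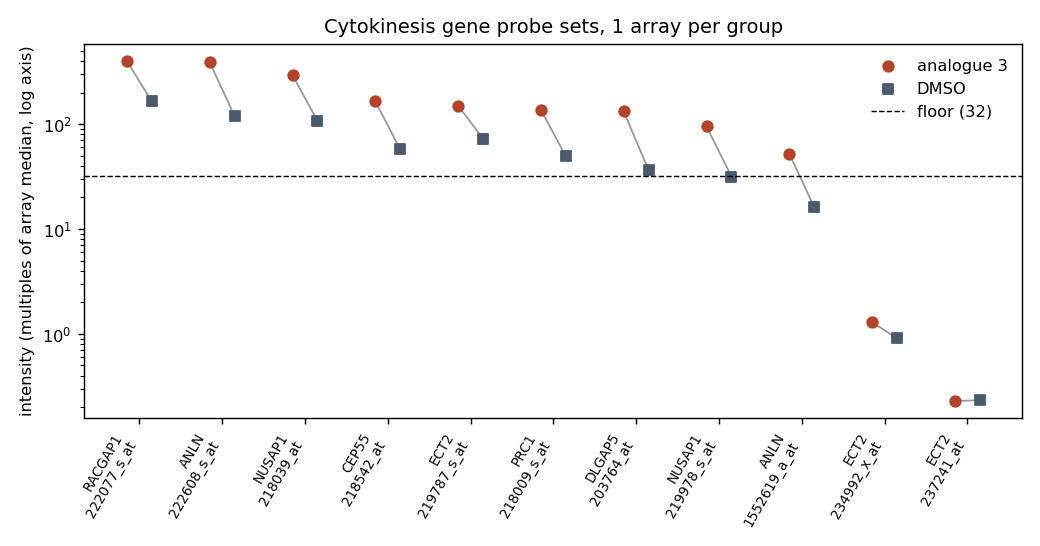
Intensity (multiples of the array median, log axis) of all 11 probe sets of the 7 genes, with analogue 3 (circles) and DMSO (squares), 1 array each; the dashed line is the floor of 32. The analogue 3 value is the higher in 10 of them, and both values lie under 2 in the last 2 ECT2 probe sets.

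PRC1 crosslinks antiparallel microtubules and so holds the central spindle together. Its single probe set read 137.6 with analogue 3 and 49.4 with DMSO, or 2.78-fold (log2 1.48). RACGAP1, the GTPase-activating subunit of the centralspindlin complex, read 401.3 with analogue 3 and 165.4 with DMSO, 2.43-fold higher. Both genes were above the floor on both arrays, PRC1 less clearly with DMSO, and were higher with the compound. With a floor of log2 7 the log2 difference was 0.10 for PRC1 and 1.28 for RACGAP1. Each rests on 1 probe set whose name ends in _s_at, a class that can share sequence with other transcripts, as do the brightest probe sets of ANLN and ECT2.

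ECT2 is the exchange factor that RACGAP1 recruits and that loads RhoA with GTP at the cell equator. It had the smallest difference of the 7, with 150.7 with analogue 3 and 72.9 with DMSO, or 2.07-fold (log2 1.05), just past the 2-fold limit. Its other probe sets carried almost no signal on either array, at 1.29 with analogue 3 and 0.905 with DMSO in the first, and at 0.228 with analogue 3 and 0.233 with DMSO in the second. The second was thus the only 1 of the 11 probe sets that did not read higher with analogue 3. These 2 probe sets give no usable second reading of ECT2.

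ANLN encodes anillin, the scaffold that ties RhoA, actin, myosin and septins together at the furrow. The brighter probe set read 390.2 with analogue 3 and 119.9 with DMSO, which is 3.25-fold. The dimmer one read 52.1 with analogue 3 and 16.2 with DMSO. Its floored difference was therefore only a bound of at least 1.63-fold, and this was the 1 of 9 measured member probe sets not called. As deposited, without the floor, the log2 differences of the brighter and the dimmer probe set were 1.70 and 1.68.

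CEP55 is the midbody protein that brings in ESCRT factors through PDCD6IP (ALIX) and TSG101. It read 165.7 with analogue 3 and 57.6 with DMSO, or 2.88-fold higher, on its single probe set. Across all 7 genes, 8 of the 9 probe sets that reached the floor were called higher, where 3.28% of 6974 measured single-gene probe sets were.

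DLGAP5 (HURP) and NUSAP1 bind and bundle spindle microtubules and are targets of the Ran GTPase pathway around chromosomes. DLGAP5 had the largest difference of the 7. It read 132.6 with analogue 3 and 36.5 with DMSO, or 3.63-fold (log2 1.86), and the DMSO value was close to the floor. NUSAP1 read 294.2 with analogue 3 and 108.2 with DMSO in its brighter probe set, 2.72-fold higher. In its other probe set it read 95.3 with analogue 3 and 31.7 with DMSO, just under the floor, so at least 2.98-fold higher. Both NUSAP1 probe sets were called.

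The log2 differences of the 7 genes spanned 0.81, with an SD of 0.27 between genes. With 1 array per group, technical error was gauged from how far 2 probe sets for the same gene disagreed. The SD of 1 probe set was 0.17 over the 1127 genes with 2 that reached the floor in both cultures. Every member's difference was larger than this SD, as any difference called at 2-fold must be. The SD leaves out the error of cell culture, RNA preparation and hybridisation, which both probe sets of a gene share. By size of difference, the genes held ranks 13 (DLGAP5), 22 (ANLN), 36 (CEP55), 43 (PRC1), 51 (NUSAP1), 88 (RACGAP1) and 155 (ECT2) of 5050. Neighbours such as CEP55, PRC1 and NUSAP1, at log2 1.52, 1.48 and 1.44, did not differ beyond the probe-set spread.

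**Figure D3:**
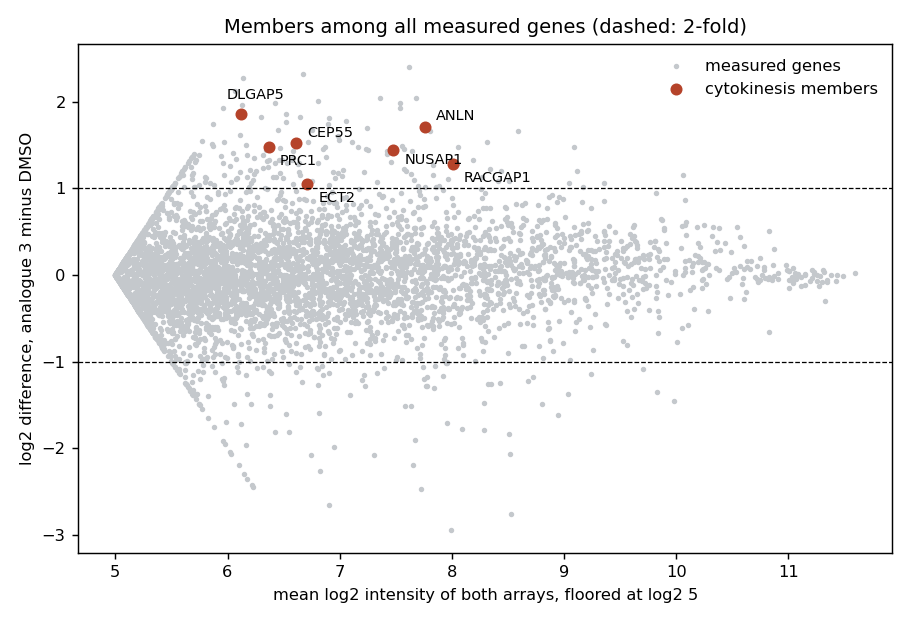
Log2 difference, analogue 3 minus DMSO, against the mean log2 intensity of both arrays for all 5050 measured genes (grey) and the 7 members (red), floored at log2 5; dashed lines mark 2-fold. The members lie between 1.05 and 1.86, over a range of levels, and grey diagonal edges are genes under the floor on 1 array.

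For each member, 1 other gene among 4281 above the floor on both arrays lay nearest in log2 intensity over the 2 arrays. These were ID3 for DLGAP5, MAD2L1 for ANLN, CSRP2 for CEP55, HMGB3 for PRC1, LSM3 for NUSAP1, MELK for RACGAP1 and PRSS23 for ECT2, at distances of 0.04 to 0.08. With only 2 arrays this likeness describes a pair of values.

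Kinesins that work with these proteins also had more signal with analogue 3. KIF23, the motor subunit of centralspindlin, read 56.1 with analogue 3 and 21.5 with DMSO, at least 1.75-fold higher. KIF4A, the kinesin that carries PRC1 to microtubule plus ends, read 141.6 with analogue 3 and 56.6 with DMSO (2.50-fold). KIF14, which binds PRC1 and citron kinase, read 115.2 with analogue 3 and 50.3 with DMSO (2.29-fold). KIF20A, which takes the passenger complex to the midzone, had the largest difference of the group, 417.4 with analogue 3 and 101.0 with DMSO. Of the 5 measured central spindle kinesins, 3 were called higher and none lower, with a median log2 difference of 1.20. KIF20B, at 54.5 with analogue 3 and 22.9 with DMSO, had a bound of at least 1.70-fold.

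The chromosomal passenger complex phosphorylates centralspindlin, and PLK1 creates the docking site for ECT2. In this list 3 of 5 genes were measured and 2 were called higher. AURKB, the complex's kinase, read 150.7 with analogue 3 and 66.1 with DMSO, and BIRC5 (survivin) read 190.6 with analogue 3 and 69.7 with DMSO. CDCA8 read 49.0 with analogue 3 and 14.6 with DMSO, at least 1.53-fold higher. INCENP, the scaffold of the complex, reached the floor on neither array, with 8.09 with analogue 3 and 2.39 with DMSO. PLK1 did not reach it either, with 9.82 with analogue 3 and 2.92 with DMSO.

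Ran and spindle assembly partners of DLGAP5 and NUSAP1 had a median log2 difference of 0.80 over 12 measured genes, 4 of them called higher. These were AURKA (2.69-fold), KIF11 (at least 2.54-fold), TPX2 (2.44-fold) and HMMR (2.05-fold). The transport and GTPase components varied. KPNB1 (importin beta) had a log2 difference of -0.09 and KPNA2 (importin alpha) one of 0.65, with 1.06 in its other probe set. RCC1, the Ran exchange factor, read 60.5 with analogue 3 and 28.9 with DMSO, at least 1.89-fold higher. RAN had a log2 difference of 0.44 in its brightest probe set, and its other probe set, at 126.3 with analogue 3 and 160.6 with DMSO, differed in the opposite direction. CLTC, the clathrin heavy chain, was the lowest of the list at -0.19.

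None of 13 measured RhoA and contractile ring genes was called in either direction, and their median log2 difference was 0.19. Over all measured genes 3.47% were called higher and 2.67% lower, so finding none is unremarkable in a list this short. RHOA itself read 710.8 with analogue 3 and 619.9 with DMSO (log2 0.20), and the non-muscle myosin heavy chain gene MYH10 read 250.9 with analogue 3 and 218.1 with DMSO. The lowest was the myosin light chain gene MYL12A, with 321.3 with analogue 3 and 475.5 with DMSO (log2 -0.57). The highest was the formin gene DIAPH3, with 44.1 with analogue 3 and 18.1 with DMSO, a lower bound of 1.38-fold against the floor and a log2 difference of 1.28 without it. Septins, the filament-forming partners of anillin, had a median of 0.09 over 6 measured genes and none was called. SEPTIN9 read 157.8 with analogue 3 and 146.6 with DMSO, and the lowest and highest were SEPTIN10 and SEPTIN11, at -0.32 and 0.32. The sign of the septin median turned with the floor, at -0.022 with a floor of log2 1.

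Abscission genes other than CEP55 were mostly a little below 0, and none of those measured differed by 2-fold. Since 3.47% of all measured genes were called higher and 2.67% lower, finding none is unremarkable in lists this short. Of the 11 abscission genes measured, 9 were below 0, with a median log2 difference of -0.33. TSG101, the ESCRT-I subunit that CEP55 binds, read 99.1 with analogue 3 and 158.8 with DMSO (log2 -0.68). CHMP2B, a subunit of the cutting filament, read 117.7 with analogue 3 and 159.2 with DMSO. The highest was the ATPase gene VPS4A at 0.11. The kinases most like citron kinase in sequence, and other relatives of the members, gave 3 measured genes, none called, with a median of -0.25. ROCK1 read 143.0 with analogue 3 and 164.3 with DMSO. CDC42BPA was the lowest at -0.61, and the relatives of DLGAP5 on the array (DLGAP2, DLGAP3 and DLGAP4) were under the floor on both arrays.

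**Figure D4:**
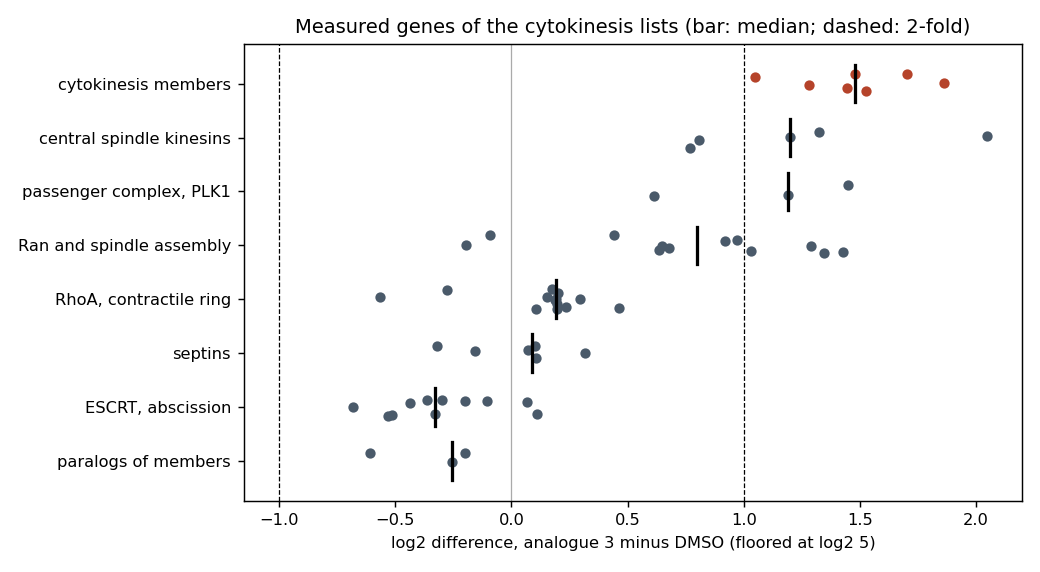
Log2 difference, analogue 3 minus DMSO, for each measured gene of the members (red) and of 7 related lists (grey), floored at log2 5, so that points with 1 array under the floor are bounds; vertical bars are medians and dashed lines 2-fold. The medians are 1.48 for the members, 1.20 for the kinesins, 0.19 for the contractile ring and -0.33 for the ESCRT genes. Those of the passenger and Ran lists, 1.19 and 0.80, were 1.75 and 1.05 without a floor. That of the members stayed at 1.48, as it must with all of them above the floor on both arrays.

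More genes passed at a lower floor. With a floor of log2 3, 3.74% of 8523 measured genes were called higher and 3.92% lower. Under that floor all 5 kinesins, 3 of 5 passenger and PLK1 genes and 7 of 12 Ran and spindle assembly genes were called higher. Of the ring genes DIAPH3 was then called higher and RHOB lower, and CHMP4C, an abscission checkpoint subunit, was called lower. RHOB read 6.68 with analogue 3 and 17.1 with DMSO, and CHMP4C read 7.33 with analogue 3 and 20.0 with DMSO. Those 2 genes were singled out after their values were seen.

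Promoter letters were counted in the same lists, as a description. A CHR match was found in 5 of 6 kinesin genes, 3 of 4 passenger and PLK1 genes and 6 of 9 Ran and spindle assembly genes with an entry. It was found in 2 of 19 ring genes, 1 of 10 septins, 1 of 14 ESCRT genes and 2 of 9 relatives of the members. Over all genes with an entry the share was 18.2%. CCAAT was found in 6 of 6 kinesin genes, 4 of 4 passenger and PLK1 genes and 4 of 9 Ran and spindle assembly genes. It was also found in 15 of 19 ring genes, 5 of 10 septins, 5 of 14 ESCRT genes and 3 of 9 relatives. Its share over all genes with an entry was 39.7%.

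Markers of other cell types were low. None of 5 leukocyte, 6 fibroblast, 5 endothelial and 6 differentiated lung epithelial markers on the array reached the floor, and the summed intensity of the leukocyte list was 2.99 with analogue 3 and 3.51 with DMSO. That of the fibroblast list was 8.53 with analogue 3 and 6.92 with DMSO, and that of the endothelial list 19.5 with analogue 3 and 14.9 with DMSO. Of 6 epithelial markers, KRT18 (457.9 with analogue 3 and 460.8 with DMSO) and KRT8 (77.8 with analogue 3 and 42.3 with DMSO) were measured, while EPCAM and CDH1 were under 1 on both arrays. NKX2-1, a lung adenocarcinoma marker, was close to the array median at 1.858 with analogue 3 and 1.855 with DMSO. The 18 hybridisation controls ran from -0.14 to 0.17 on the log2 scale, with a median of -0.03. The 3′ to 5′ signal ratio of ACTB was 10.0 with analogue 3 and 11.8 with DMSO, and that of GAPDH was 1.18 with analogue 3 and 1.21 with DMSO. The part of RNA quality in the members' values was not tested.

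**Figure D5:**
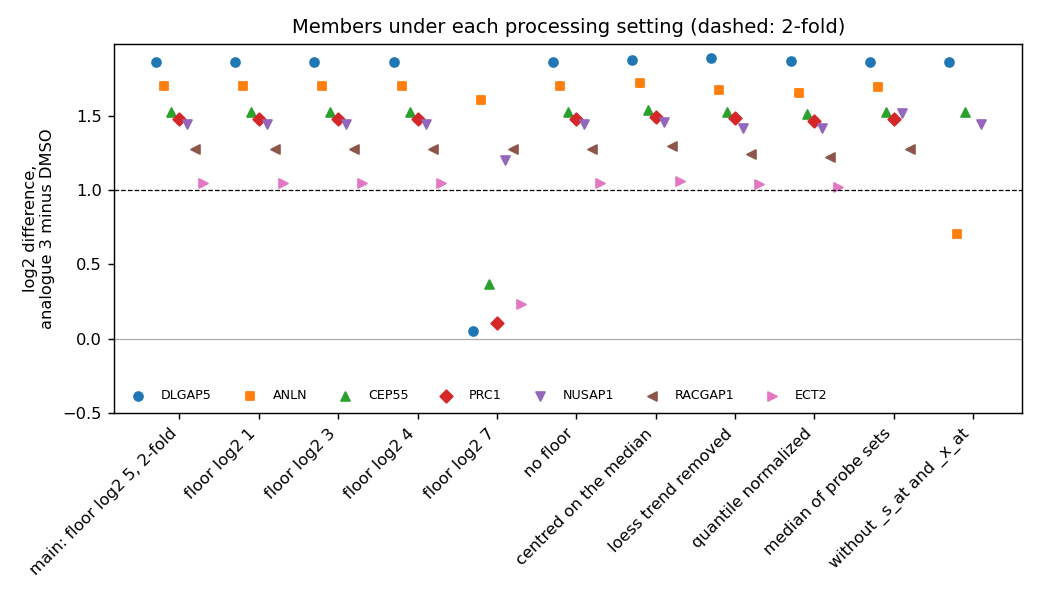
Log2 difference, analogue 3 minus DMSO, of each member under the setting reported and 10 alternatives; the dashed line marks 2-fold. Values change little except with a floor of log2 7 and, for ANLN, without probe sets ending in _s_at or _x_at. With a lower floor or no floor they could not change, because all members lay above the reported floor on both arrays. Missing points are genes no longer measured.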

How the data were processed

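Total RNA from 2 CL1-5 cultures was labelled with biotin and hybridised to 1 array each, per the labels' protocols. The intensity values that the authors deposited were made with GCRMA (sequence-based background correction, quantile normalization and probe summarisation), per the submitters' processing notes, with no version given in the sources used here. They are linear, with a median of 1 on each array, from which a scaling of each array to its median was inferred. The number of arrays limits the precision.

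Gene names came from the platform annotation held by GEO. Of 54675 probe sets 41097 had 1 symbol, 1801 had several and 11777 were not listed and stay unnamed, and 41043 of the single-gene probe sets matched RefSeq by gene number. Probe sets were not placed on a genome, and the promoter windows and their coordinates are RefSeq's (GRCh38.p14). Values were floored at log2 5 (32) after log2 transformation, which 13.1% of probe sets reached with analogue 3 and 13.4% with DMSO. Calls needed 2-fold over all measured genes, and no test was possible. The procedure was tested on simulated data. How far cultures given the same treatment differ, and so whether the calls would recur, was not tested. Members, gene lists, floor and rules were chosen with earlier results of these data known.

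All members and their probe sets are named. Of the related lists, called genes and the highest and lowest are named, and other genes of the lists, and of the marker lists, were chosen after their values were seen. Alternatives were floors of log2 1, 3, 4 and 7, no floor, median centring, loess (span 0.3), quantile normalization, the median over each gene's probe sets, leaving out _s_at and _x_at probe sets, and other thresholds. Python 3.11.15, pandas 2.3.3, numpy 2.4.6 and statsmodels 0.14.6 were used.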

Additional observations from a re-analysis of the deposited data

Results flagged for a closer look

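The brighter of 2 probe sets that the annotation assigns to CIT and MIR1178 together, and which were left out of the comparison for that reason, read 21.2 with analogue 3 and 8.01 with DMSO. It drew attention as signal outside the comparison that exceeded the DMSO array 2.65-fold. Both values lie under the floor of 32, and the dimmer probe set read 1.09 with analogue 3 and 0.925 with DMSO. Neither is read as a level of CIT.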

How the results depend on the processing

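No paired analysis was possible because there was 1 array per group. Of 66 member values over the alternatives, all lay above 0 and 61 were at least 1 on the log2 scale, from 0.05 to 1.89. Those with a lower floor or no floor only repeat the reported values. Each member's brightest probe set already lay above the reported floor on both arrays, so these settings do not test the members. Centring moved all members alike, with the median going from 1.477 to 1.491. A lower threshold cannot reduce the count of members called. Quantile normalization is already part of GCRMA, so repeating it could move the values little, and the members' median was then 1.463. The count of 7 members called was unchanged with floors of log2 1, 3 and 4, no floor, centring, loess, quantile normalization and a threshold of 1.5-fold. Of all measured genes, 2.40% to 3.76% were called higher under these settings at 2-fold, and 9.45% at 1.5-fold. The members' count was 3 of 7 with a floor of log2 7, which raises most of the members' DMSO values, and the median log2 difference was then 0.37, where 2.22% of all measured genes were called higher. It was 3 of the 4 members still measured without _s_at and _x_at probe sets (3.67% of all genes). There CEP55, DLGAP5 and NUSAP1 kept the probe sets reported, and ANLN, read from its other one, was not called. The count was 6 of 6 with the median of probe sets (4.14% of all genes, with ECT2 then under the floor). For CEP55, DLGAP5, PRC1 and RACGAP1, with 1 probe set each, that setting only repeats the reported value. At 3-fold, which 0.574% of all measured genes passed upward, the count was 2 (DLGAP5 and ANLN). Of the genes in the 7 related lists, 9 of 53 measured were called, all higher. Over all measured genes 3.47% were called higher and 2.67% lower. Calls in either direction numbered 20 of 70 with a floor of log2 1 (18 higher), 18 of 65 with log2 3 (16 higher), 16 of 60 with log2 4 (all higher), 3 of 31 with log2 7 (all higher) and 20 of 77 with no floor (18 higher), as more or fewer genes pass. The shares of all measured genes called higher at these settings were, in the same order, 3.76%, 3.74%, 3.69%, 2.22% and 2.40%. The septin median turned to -0.022 with a floor of log2 1 (8 genes) and -0.013 with no floor (11 genes). It was -0.28 with the median of probe sets (1 gene). The passenger and PLK1 median went from 1.19 to 1.75 with no floor (5 genes) and to 0.405 with log2 7 (2 genes). That of the Ran and spindle assembly list went from 0.80 to 1.05 with no floor and to 0.442 with log2 7.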
